A study of Mus musculus with 6 samples.

Results

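The 10 genes described here make, recycle, use and break down glutathione: Chac1, Chac2, Ggct, Oplah, Gclc, Gclm, Gss, Gsr, Gpx4 and Cth. They were chosen by gene symbol, with their SD70 against DMSO values already known and with Chac1 picked for its difference in that contrast, so their differences between the groups are given as a description. The fit across all genes covered them as well, and its outcome for them is counted once beside the share over all genes, where it is no test of these genes. All 10 were found among the 16081 genes listed, and all 10 passed the filter on low counts that left 11552 genes for the fit across genes. The transcriptome was sequenced in Lewis cells, an established mouse Lewis lung carcinoma line grown in DMEM with serum. The cells were kept for 24 hours with either SD70, a small-molecule inhibitor of the histone demethylase KDM4C, or DMSO, its solvent. Each group held 3 samples. All samples came from the same line with no gene altered, and the concentration of SD70 used for sequencing was not given in the sources used here. The comparison asks which transcripts differ after pharmacological inhibition of KDM4C.

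Glutathione is a tripeptide of glutamate, cysteine and glycine and the main soluble thiol of animal cells. Glutamate cysteine ligase (Gclc with Gclm) joins the first pair of amino acids, glutathione synthetase (Gss) adds glycine, and cysteine is usually the limiting substrate. In the cytosol the ChaC enzymes cleave glutathione into 5-oxoproline and cysteinylglycine, and Chac1 is known as a target of the stress-response transcription factors ATF4, CHOP (Ddit3) and ATF3.

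Total counts per sample ranged from 15276744 in SD70 replicate 3 to 17060424 in DMSO replicate 3. The labels call the samples lung adenocarcinoma cells. Of 5 markers of lung adenocarcinoma and alveolar type 2 cells, 3 were listed: Sftpc and Krt7 had 0 or 1 count in every sample, and Napsa had 65 to 85. The epithelial genes Epcam, Cdh1 and Krt19 had at most 1 count, and Krt8 had 2382 to 4150. Of 5 mesenchymal genes, Vim had 44823 to 73431 counts and Fn1 7758 to 11279, Pdgfrb had 566 to 1632, and Cdh2 and Col1a1 had at most 6. Krt8, Krt18, Vim and Fn1 fell and Pdgfrb rose 2.91-fold (edgeR), and their part in the results was not tested. The cells are called Lewis cells here. All 8 immune cell markers were listed, summing to 274 to 289 counts in DMSO and 192 to 221 in SD70, mostly from Cd68. Their defining gene Ptprc had 0 counts in each DMSO sample and 1 or 2 in each SD70 sample. The labels do not say whether the samples were separate cultures, so p-values measure the spread between these samples, which may be technical. In bulk RNA, fewer cells expressing a gene and less of its RNA per cell cannot be told apart.

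Chac1 (gene ID 69065, chr2:119351242-119354326 of GRCm38.p6, plus strand, no other annotated gene overlapping it) cleaves reduced glutathione. The 250 bases before its annotated start (chr2:119350992-119351241, plus strand, RefSeq GRCm38.p6) are shown because Chac1 and the genes with the most similar pattern were much higher in SD70. The capitals mark a match to TGACGNAA on the plus strand, 250 to 243 bases before the start, and a match to TGATGNAA on the minus strand, 193 to 186 bases before it.
Chac1: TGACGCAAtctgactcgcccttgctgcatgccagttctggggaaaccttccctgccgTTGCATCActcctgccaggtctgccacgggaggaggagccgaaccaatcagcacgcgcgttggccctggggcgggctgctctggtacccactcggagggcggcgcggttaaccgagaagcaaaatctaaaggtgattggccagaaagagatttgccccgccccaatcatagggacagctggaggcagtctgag

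TGATGNAA is written for the C/EBP-ATF response element and TGACGNAA for an ATF site, both sought on both strands. Over 32851 RefSeq promoter windows of the same 250 bases, 1134 (3.45%) held the first and 455 (1.39%) the second. Windows were found for 6 of the 10 genes (Chac1, Chac2, Ggct, Gclm, Gss and Gpx4), and among them these motifs were matched in the Chac1 window alone. The antioxidant response element core, written as TGACNNNGC, was held by 3338 windows (10.2%) and matched before Ggct and Gclm, in both on the strand opposite to the gene. Distances here count from the start used for each window. The Ggct match lay 174 to 166 bases before that start (chr6:54993033-54993041). The Gclm match lay 134 to 126 bases before that of its window (chr3:122245423-122245431). Both window starts lie inside the gene coordinates given below, so these matches are nearer to the annotated gene starts. A match describes letters and is not evidence of binding. For the 6 genes, where no match is named these letters were not in this window.
Ggct: caatagaaaaGCGACGTCAgtgggcggga
Gclm: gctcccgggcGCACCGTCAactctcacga

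Chac1 was counted 140, 177 and 202 times in the DMSO samples and 2279, 2544 and 2314 times in the SD70 samples. The lowest SD70 sample was far above the highest DMSO sample. The normalised count went from 167 ± 28.9 (SD, n = 3) to 2462 ± 129 (SD, n = 3). This is a 14.7-fold difference, a log2 fold change of 3.88 with a standard error of 0.080, and it ranked at 7 among the 11552 genes by log2 fold change. Per length, Chac1 lay at the 33.8 percentile of tested genes in DMSO and at the 93.4 percentile in SD70. Leaving out any 1 sample kept the log2 fold change between 3.75 and 3.99.

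The other enzyme of the same reaction, Chac2 (gene ID 68044, chr11:30976707-30986365, minus strand), degrades glutathione more slowly and is regarded as the housekeeping form. Its counts were 399, 410 and 444 in DMSO and 402, 369 and 295 in SD70. The groups overlapped, with SD70 replicate 3 the lowest. The log2 fold change of Chac2 was -0.14 with a standard error of 0.083.

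Within a sample, the FPKM ratio of Chac1 to Chac2 was 0.287, 0.355 and 0.375 in DMSO and 4.65, 5.69 and 6.45 in SD70. Chac2 was thus the higher of the pair in every DMSO sample and Chac1 the higher in every SD70 sample. The mean ratio was 0.339 ± 0.046 (SD, n = 3) in DMSO and 5.598 ± 0.905 (SD, n = 3) in SD70.

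**Figure D1:**
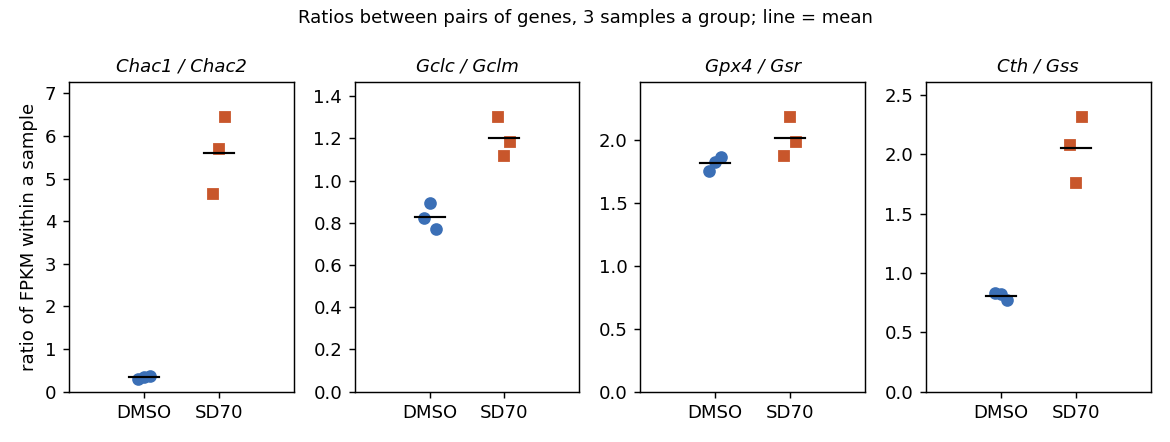
FPKM ratio within each sample for Chac1 to Chac2, Gclc to Gclm, Gpx4 to Gsr and Cth to Gss, on linear axes from 0, with 3 points a group and a line at the mean. The Chac1 to Chac2 ratio lies between 0.287 and 0.375 in DMSO and between 4.65 and 6.45 in SD70, and the Gpx4 to Gsr ratio has the smallest gap between the groups.

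Ggct (gene ID 110175, chr6:54985095-54992960, minus strand) releases 5-oxoproline from gamma-glutamyl amino acids. It was counted 75, 89 and 67 times in DMSO and 103, 114 and 88 times in SD70. Raw counts of DMSO replicate 2 and SD70 replicate 3 were almost the same, whereas after normalisation all SD70 samples lay above all DMSO samples. Its normalised count was 74.6 ± 11.2 (SD, n = 3) in DMSO and 105 ± 8.20 (SD, n = 3) in SD70, a log2 fold change of 0.49 with a standard error of 0.146. Ggct had few counts, and its log2 fold change ran from 0.39 to 0.60 over 13 alternative analyses.

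Oplah (gene ID 75475, chr15:76296603-76331181, minus strand) converts 5-oxoproline back into glutamate and had the lowest FPKM of the 10 genes. Its counts were 150, 122 and 111 in DMSO and 90, 107 and 100 in SD70. All raw SD70 counts were below all raw DMSO counts, but the normalised counts overlapped (124 ± 20.4 and 103 ± 9.88, SD, n = 3 each). The log2 fold change was -0.27 with a standard error of 0.137. The annotated exons of Oplah overlap those of Smpd5 by 296 bases and of Exosc4 by 385 bases on the other strand, and the sources do not say whether counting used strand.

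Of the glutamate cysteine ligase pair, Gclc (gene ID 14629, chr9:77754535-77794489, plus strand) is the catalytic subunit. Gclc counts were 972, 982 and 942 in DMSO and 1224, 1086 and 1079 in SD70. The groups did not overlap. The normalised count was 935 ± 27.4 (SD, n = 3) in DMSO and 1169 ± 83.3 (SD, n = 3) in SD70, 1.25-fold higher, with a log2 fold change of 0.32 and a standard error of 0.061.

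The modifier subunit Gclm (gene ID 14630, chr3:122245487-122267215, plus strand) raises the activity of the catalytic subunit. Gclm counts were 717, 673 and 764 in DMSO and 577, 610 and 560 in SD70. Every SD70 sample was below every DMSO sample. The normalised count was 695 ± 39.7 (SD, n = 3) in DMSO and 602 ± 15.5 (SD, n = 3) in SD70, a log2 fold change of -0.21 with a standard error of 0.067. Over the 13 alternatives its log2 fold change ran from -0.26 to -0.17. Exons of Gclm overlap 244 bases of the pseudogene Gm6061 on the same strand and 296 bases of Gm17494 on the other strand.

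The subunits therefore differed in opposite directions. The FPKM ratio of Gclc to Gclm was 0.825, 0.892 and 0.769 in DMSO and 1.303, 1.116 and 1.182 in SD70, below 1 in each DMSO sample and above 1 in each SD70 sample.

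Gss (gene ID 14854, chr2:155563181-155592810, minus strand) carries out the final step of synthesis. It was counted 230, 247 and 259 times in DMSO and 291, 356 and 327 times in SD70. No SD70 sample reached down into the DMSO range. The normalised count was 237 ± 12.3 (SD, n = 3) in DMSO and 336 ± 35.5 (SD, n = 3) in SD70, 1.41-fold higher, with a log2 fold change of 0.50 and a standard error of 0.091. Gss exons overlap 395 bases of Acss2 on the other strand, and the log2 fold change of Acss2 was -0.41. They also overlap 385 bases of the antisense gene Gssos2 and 322 bases of Gssos1. What these overlaps add to the Gss counts was not tested.

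Cth (gene ID 107869, chr3:157894248-157925081, minus strand) encodes cystathionine gamma-lyase, the last enzyme of the transsulfuration route from methionine to cysteine. Cth counts were 173, 184 and 183 in DMSO and 556, 573 and 687 in SD70. The DMSO samples were close together and all SD70 samples lay above them, SD70 replicate 3 being the highest. The normalised count of Cth was 174 ± 5.17 (SD, n = 3) in DMSO and 630 ± 109 (SD, n = 3) in SD70. It was 3.60-fold higher, with a log2 fold change of 1.85 and a standard error of 0.105, the second of the 10 genes by size of difference and at rank 89 of all tested genes. Leaving out any 1 sample gave log2 fold changes of Cth from 1.69 to 1.92.

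Against Gss, the FPKM ratio of Cth was 0.827, 0.819 and 0.769 in DMSO and 2.08, 1.76 and 2.32 in SD70. Cth was below Gss in each DMSO sample and above it in each SD70 sample.

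The enzymes that recycle and use glutathione, Gsr and Gpx4, had the smallest log2 fold changes of the 10 genes. Gsr (gene ID 14782, chr8:33653238-33698162, plus strand) reduces oxidised glutathione with NADPH. Its counts were 5545, 5458 and 5437 in DMSO and 5174, 5004 and 4820 in SD70. All raw SD70 counts were below all raw DMSO counts, and SD70 replicate 3, the lowest, had the smallest library. Normalised counts overlapped (5306 ± 94.7 and 5174 ± 179, SD, n = 3 each). The log2 fold change was -0.04 with a standard error of 0.049.

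Gpx4 (gene ID 625249, chr10:80047166-80056439, plus strand) is a selenoprotein that uses glutathione to reduce lipid hydroperoxides, the step that guards against ferroptosis. Gpx4 counts were 3044, 3138 and 3236 in DMSO and 3034, 3450 and 2978 in SD70. The groups overlapped. The log2 fold change of Gpx4 was 0.10 with a standard error of 0.051, and the FPKM ratio of Gpx4 to Gsr was 1.81 ± 0.055 (SD, n = 3) in DMSO and 2.02 ± 0.157 (SD, n = 3) in SD70.

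**Figure D2:**
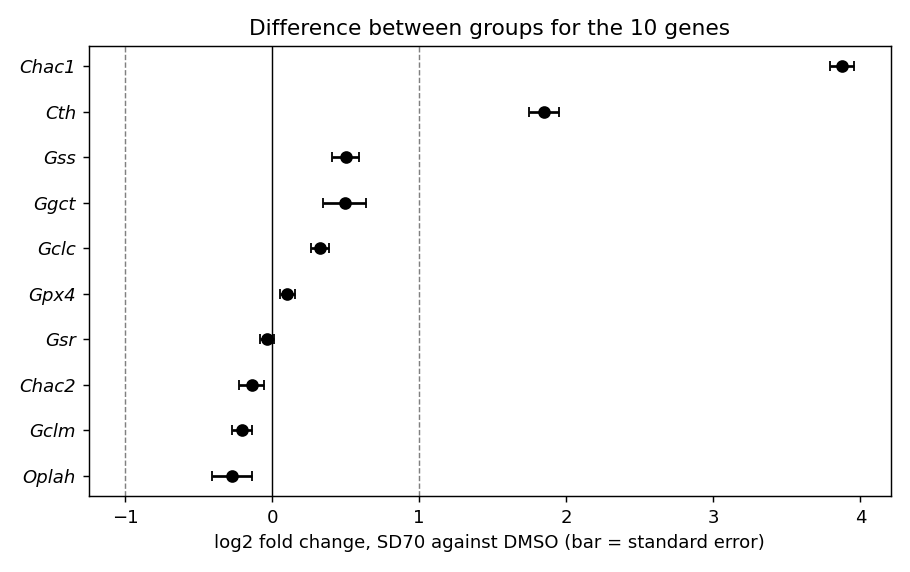
Log2 fold change of SD70 against DMSO for the 10 genes, each point with its standard error from the fit across all genes and dashed lines at -1 and 1. Chac1 at 3.88 and Cth at 1.85 lie beyond the dashed line, and the other 8 genes lie between -0.27 and 0.50.

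In the fit across all genes, 5 of the 10 (Chac1, Cth, Gss, Ggct and Gclc) lay on the higher side of the threshold of 0.01 for the adjusted p-value, against 25.8% of all genes tested, and 1 (Gclm) on the lower side, against 24.2%. Gclm and Ggct left these counts in 5 of the 13 alternatives. With a log2 fold change of at least 1 as well, Chac1 and Cth were higher, against 3.29% of all genes. The groups did not overlap for 6 of the 10, against 64.4% of all genes. The median log2 fold change was 0.21 over the 10 genes and -0.0043 over all genes. The genes were chosen with this contrast known, so these counts are no test of them and nothing is read from them. The 4 genes on neither side were Chac2, Oplah, Gsr and Gpx4.

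Levels were compared between genes per length, as FPKM. In DMSO the order from the highest was Gpx4 (235 ± 2.62), Gsr (130 ± 2.85), Gclm (22.3 ± 1.15), Chac2 (21.5 ± 0.780), Gclc (18.5 ± 0.440), Gss (8.12 ± 0.412), Chac1 (7.30 ± 1.21), Cth (6.53 ± 0.190), Ggct (4.54 ± 0.602) and Oplah (1.98 ± 0.318), each as SD with n = 3. Gclm and Chac2 were not separated beyond their spread, nor were Gss and Chac1, or Chac1 and Cth. The other neighbours did not overlap.

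In SD70 the level of Gpx4 was 249 ± 12.7 (SD, n = 3) and that of Gsr 124 ± 4.33 (SD, n = 3), still the first and the second. Chac1 came next at 105 ± 5.73 (SD, n = 3), with 98.95, 107.96 and 109.58 in the 3 samples, below Gsr in each and above all of the remaining genes. Cth (23.2 ± 4.11), Gclc (22.7 ± 1.38), Chac2 (19.1 ± 2.15) and Gclm (19.0 ± 0.530) followed, and each overlapped its neighbour. Gss (11.3 ± 1.16), Ggct (6.28 ± 0.715) and Oplah (1.59 ± 0.170) closed the order without overlap. Chac1 thus moved from the seventh place to the third and Cth from the eighth to the fourth, although Cth was below Gclc in SD70 replicates 1 and 2 and its place rests on replicate 3.

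**Figure D3:**
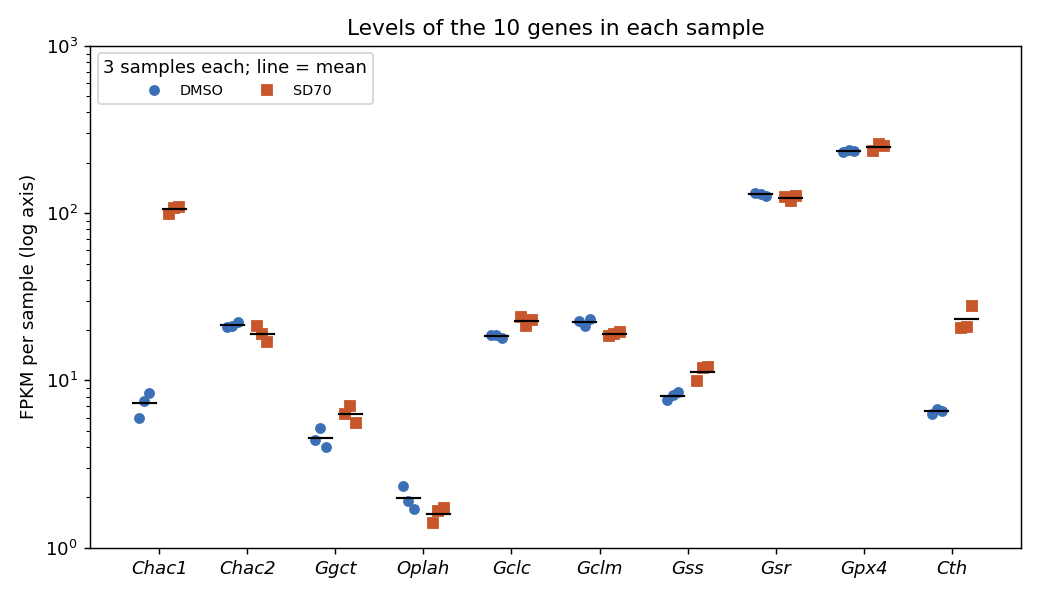
FPKM of the 10 genes in each of the 3 DMSO and 3 SD70 samples on a log axis, with a line at each group's mean. Chac1 goes from 5.99 to 8.37 in DMSO to 98.95 to 109.58 in SD70, while Gpx4 and Gsr stay the highest in both groups.

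Among 10267 tested genes with a mean normalised count of at least 50, the 5 whose mean-centred log2 CPM over the 6 samples was closest to Chac1 were Atf3, Gdf15, Ccdc169, Cass4 and Csf2. Ccdc169 reached that count through SD70, with a mean of 8.71 in DMSO and 114 in SD70. The root mean square differences of the 5 from Chac1 were, in that order, 0.170, 0.190, 0.244, 0.252 and 0.335. With 2 groups of 3, likeness is mainly a difference of similar size between the groups. The 2 nearest are Atf3, a stress-induced transcription factor, and Gdf15, a secreted stress cytokine.

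Other genes around glutathione were grouped by role into 13 lists of 136 genes, of which 129 were listed and 102 tested. Of these, 33 rose and 24 fell at an adjusted p-value under 0.01 (quasi-likelihood test in edgeR, Benjamini-Hochberg adjusted), against 25.8% and 24.2% of all genes tested. Among them, 15 of the risen and 3 of the fallen reached a 2-fold difference, against 3.29% and 2.61% of all genes. Their median log2 fold change was 0.04. The lists were set with earlier results of these data known, so the counts for any list are no test of it. In the supply of cystine and methionine, 6 of 11 tested genes rose (25.8% of all genes did), 1 (Mat2b, log2 fold change -0.51) fell and the median was 0.76.

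The cystine importer is made of Slc7a11 and Slc3a2. Slc7a11 was counted 774, 721 and 742 times in DMSO and 2507, 2493 and 2551 times in SD70, with no overlap. It rose 3.61-fold (log2 fold change 1.85, standard error 0.059, edgeR, adjusted p = 7.23e-24). Its partner Slc3a2 rose 2.82-fold (adjusted p = 2.13e-22, edgeR).

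In methionine metabolism, Mat2a and Mtrr rose by 0.78 and 0.76 on the log2 scale. The glutamate and cysteine transporter Slc1a1 rose from 4, 7 and 2 counts to 14, 16 and 18 (log2 fold change 1.95), a value of 0.25 on the log2(FPKM + 1) scale. Slc1a1 passed the filter on low counts through its SD70 samples, and with 10 counts asked of every sample 5 genes of this list rose instead of 6. Cbs, the enzyme before Cth in transsulfuration, had 0 counts in each DMSO sample and 3, 0 and 2 in SD70 and was not tested.

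For the other substrates, glutamate and glycine, 5 of 8 genes rose, against 25.8% of all genes, and Glul fell. With the replicate block or either of the other count filters 2 genes fell, Gls2 as well (main log2 fold change -0.56). The glycine transporter Slc6a9 rose from 725, 794 and 768 counts to 2767, 3043 and 3288 (log2 fold change 2.09, adjusted p = 4.05e-13, edgeR). The glutamine transporter Slc1a5 and the glycine-forming Shmt2 rose by 1.06 and 1.05, and Shmt1 by 0.46. Glutamine synthetase, Glul, was lower by a log2 fold change of -0.59 (adjusted p = 2.03e-09, edgeR).

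Among 11 regulators of the 10 genes, 9 rose and 2 fell, against 25.8% and 24.2% of all genes. The median log2 fold change of the 11 was 1.11. This list too was set with earlier results of these data known, so its count is no test of it. Atf3 (3.74), Trib3 (2.96), Ddit3 (2.66) and Atf4 (2.00) belong to the integrated stress response. Atf4 counts were 7002, 8065 and 9210 in DMSO and 30292, 32313 and 28241 in SD70 (adjusted p = 1.57e-13, edgeR). Nfe2l1 rose by 1.46, Cebpg by 1.11 and Cebpb by 1.00 on the log2 scale, the last at the 2-fold threshold and under it in 7 of 13 alternatives. Nfe2l2, the NRF2 factor that drives Gclc and Gclm, rose by 0.53 and its partner Mafg by 0.47. Keap1 and Bach1, which restrain NRF2 targets, fell with log2 fold changes of -0.29 and -0.22, Bach1 missing the adjusted p-value threshold without DMSO replicate 1 (adjusted p of 0.013, edgeR).

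Promoter windows were found for 12 of the 15 genes that rose 2-fold or more, and TGATGNAA was matched before 2 of them, Slc7a11 and Atf3. TGACGNAA was matched before 1 (Atf3, 10 to 3 bases before the start) and TGACNNNGC before 1 (Slc6a9, in 2 windows). The TGATGNAA sites are printed on the gene's strand for comparison with the Chac1 site, 66 to 59 and 47 to 40 bases before the start of Slc7a11 and 110 to 103 bases before that of Atf3.
Slc7a11: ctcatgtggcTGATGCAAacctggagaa
Slc7a11: cctggagaatTTGCATCAtcatgcagcc
Atf3: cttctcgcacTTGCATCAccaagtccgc

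Next came the genes that use glutathione. Of 17 glutathione transferases tested, 3 rose (Gstcd, Gsto1 and Gstz1) and 4 fell, against 25.8% and 24.2% of all genes, with a median log2 fold change of -0.15. With limma-trend 7 fell and with the DESeq2 Wald test 3 fell. Gstz1 and the fallen Gsto2 each missed the threshold in 5 of 13 alternatives. Gstt1 fell from 371, 354 and 360 counts to 183, 193 and 173 (log2 fold change -0.89, adjusted p = 1.34e-10, edgeR). Among peroxidases, Gpx8 fell (-0.75) and Prdx6 rose (0.42), and Gpx1 had a log2 fold change of -0.10 (adjusted p = 0.1004, edgeR). Glrx, a glutaredoxin that removes glutathione from proteins, fell from 1700, 1592 and 1675 counts to 815, 878 and 684 (log2 fold change -0.97, adjusted p = 7.24e-16, edgeR).

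Breakdown outside the cell runs through gamma-glutamyl transferases, and here Ggt1 and Ggt6 had at most 2 counts in any sample and Ggt5 had 2 to 7. Ggt7 fell from 53, 38 and 39 counts to 15, 16 and 13 (log2 fold change -1.46, adjusted p = 7.32e-06, edgeR), a log2 fold change of -0.63 on the log2(FPKM + 1) scale. Of 6 tested genes in this list, 2 rose and 1 fell, against 25.8% and 24.2% of all genes. The risen genes were the dipeptidases Dpep1 (0.65) and Cndp2 (0.18), which split cysteinylglycine, Cndp2 inside the cell. The peptidases Anpep, Dpep2 and Lap3 neither rose nor fell (log2 fold changes -0.16, -0.45 and 0.01). Dpep1 missed the threshold in 3 of 13 alternatives (DESeq2, without DMSO replicate 2 and without SD70 replicate 3) and Cndp2 in 7.

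**Figure D4:**
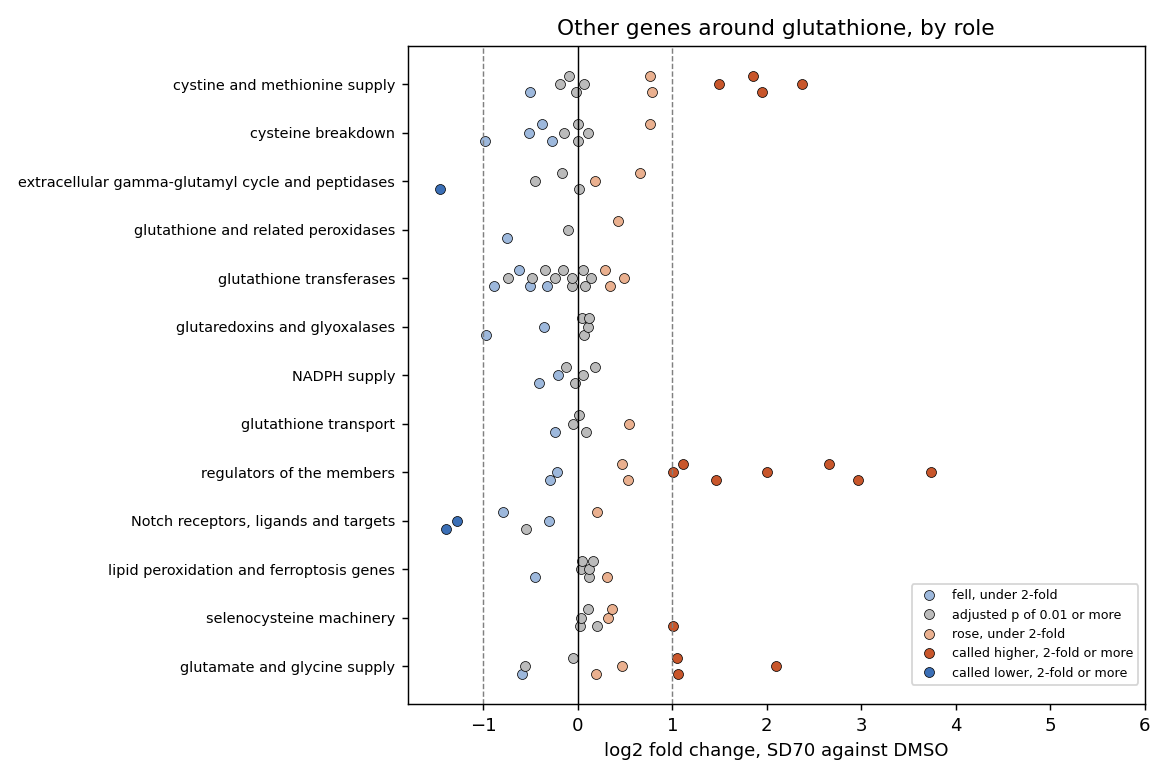
Log2 fold change of SD70 against DMSO for the 102 tested genes of the 13 lists, 1 point a gene, coloured by the outcome of edgeR's test, with dashed lines at -1 and 1. The points beyond 1 lie in the rows for cystine and methionine supply, regulators, selenocysteine machinery and glutamate and glycine supply, and those beyond -1 are Ggt7, Nrarp and Notch4.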

How the data were processed

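Lewis cells were profiled by RNA-seq in 6 samples, 3 per group, grouped by their labels. The authors sequenced on the BGISEQ-500 platform and aligned reads to GRCm38.p6 with HISAT. The submitters' processing notes list StringTie 1.3.3b and another build, and the counting tool and its use of strand were not given in the sources used here. The authors deposited per gene an expected count, not normalised and not always whole (8.84% to 9.28% of listed values per sample), and an FPKM, normalised for length and library size. The counts of the 10 genes were whole in all samples.

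Expected counts were rounded, filtered with filterByExpr, scaled by TMM (factors 0.984 to 1.02) and fitted in edgeR 4.0.16 (R 4.3.3) with robust glmQLFit and glmQLFTest, with Benjamini-Hochberg adjustment over 11552 genes. Rose and fell mean an adjusted p-value under 0.01, and a call also needs a log2 fold change of 1 or more in size. Alternatives were DESeq2 1.42.0 (Wald test, and its size factors in edgeR), 2 other count filters, limma-trend (limma 3.58.1) on log2(FPKM + 1) and log2(FPKM + 0.1), a replicate block, each sample left out, and an adjusted p-value under 0.05. No pair of samples within a group agreed within sampling noise (chi-square per gene 2.12 to 4.97).

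Deviations of samples with the same replicate number were correlated over 9623 genes by Pearson's r (0.176, 0.254 and 0.157). By rank this held for replicate 1 and not for replicates 2 and 3 (Spearman's rho 0.149, -0.024 and -0.0039). These values run across genes, which are not independent. The numbers come from the labels, which do not say that they mark shared handling.

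The lists, the 10 genes and the naming rule were set with earlier results of these data known. Named are the 10 genes, the called genes of each list, called or not the 4 tested genes of each list with the largest absolute log2 fold changes at a mean normalised count of at least 50, the markers and the 5 genes most like Chac1. Some genes that this rule covers are not reported here. Other list members that the text names, such as Mtrr, Nfe2l2, Mafg, Keap1 and Bach1, were chosen after their values were seen. Promoters and coordinates came from RefSeq tables of GRCm38.p6.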

Additional observations from a re-analysis of the deposited data

How the results depend on the processing

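Chac1 and Cth were higher in SD70 by at least 2-fold under each of the 13 alternatives (Chac1 log2 fold change 3.69 to 3.99). Gclm was no longer counted as lower with DESeq2 (0 of the 10 genes lower) or without DMSO replicate 1, DMSO replicate 3, SD70 replicate 1 or SD70 replicate 2, the number lower ranging from 0 to 1 over samples left out, and Ggct lost its place under the same settings. The cause was not tested. With limma on log2(FPKM + 1), which shrinks low genes, 202 genes were called higher, 81 lower and 1 list gene lower. Leaving out a sample gave 11 to 15 list genes called higher against 15, with 11 without SD70 replicate 3, and 4 to 5 called lower against 3, with 5 without SD70 replicate 2 or SD70 replicate 3. With the replicate block, Chac1 had a log2 fold change of 3.88, and 387 genes were called higher and 305 lower. Among the list genes named, Sqor and no other missed an adjusted p-value of 0.01 with the block after passing it without. No scaling moved the median log2 fold change of all genes outside -0.031 to 0.0052. Depth limits Ggct and Oplah, with at most 150 counts a sample, and list genes under the count filter.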

Other observations

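Chac1 is also known to block the maturation of Notch receptors. Of the Notch list, 13 of 15 genes were listed and 6 tested, of which 4 fell and 1 rose, against 24.2% and 25.8% of all genes. A link between Chac1 and these genes was not tested. The receptors Notch1 and Notch3 and the targets Hes1 and Hey1 had at most 10 counts in any sample and were not tested. Notch2 had 2244 to 2554 counts. The Notch target Nrarp fell from 240, 258 and 241 counts in DMSO to 101, 98 and 64 in SD70 (log2 fold change -1.40, standard error 0.121, quasi-likelihood test in edgeR, Benjamini-Hochberg adjusted p = 4.94e-12). Notch4 fell from 62, 43 and 49 counts to 18, 19 and 22 (log2 fold change -1.28, adjusted p = 1.36e-05, edgeR), its size under 2-fold in 2 alternatives. The ligand Jag1 fell (-0.79), as did Furin (-0.31), the protease that cuts Notch receptors, while Notch2 rose by 0.21 but missed the threshold with both limma-trend fits and without SD70 replicate 3 (adjusted p up to 0.028).

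In cysteine breakdown, 4 of 9 genes fell, against 24.2% of all genes tested, and Got1 rose by 0.76. Sulfite oxidase, Suox, fell from 118, 121 and 130 counts to 60, 57 and 58 (log2 fold change -0.98, adjusted p = 3.77e-07, edgeR). The sulfide-oxidising genes Ethe1 and Sqor and the sulfurtransferase Mpst fell with log2 fold changes of -0.38, -0.52 and -0.28, Sqor missing the adjusted p-value threshold with the replicate block and in 7 other alternatives and Mpst in 5. In the selenocysteine machinery that Gpx4 depends on, 3 of 7 genes rose, against 25.8% of all genes, Sepsecs by 1.01, Sephs2 by 0.36 and Sephs1 by 0.32. Sepsecs was under 2-fold in 6 of 13 alternatives, with a lowest log2 fold change of 0.84. Of 6 NADPH-forming enzymes, Idh1 and Idh2 fell (-0.41 and -0.21), against 24.2% of all genes. In glutathione transport, 1 of 5 tested genes rose and 1 fell, against 25.8% and 24.2% of all genes. The mitochondrial carrier Slc25a40 rose by 0.54. The exporter Abcc5 fell (-0.24), though not without DMSO replicate 2 (adjusted p = 0.0155, edgeR). The carrier Slc25a39, with more counts than Slc25a40, and the exporters Abcc1 and Abcc4 neither rose nor fell (log2 fold changes 0.014, -0.053 and 0.089). Of 7 genes of lipid peroxidation and ferroptosis tested, Hmox1 rose by 0.31 and Aifm2, a suppressor of ferroptosis, fell (-0.46), against 25.8% risen and 24.2% fallen over all genes.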
